A study of Homo sapiens with 3 samples.

Results

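The 39 genes described here encode the chaperones that fold proteins in the cytosol and in mitochondria, the ring-shaped chaperonin TRiC, and the heat shock factors HSF1 and HSF2. They were taken as a named list from the deposited table of 5637, a human bladder cancer cell line, and all 39 were found among its 19224 gene symbols. One transcript stood for each gene, the one with the most counts over the 3 libraries. By role they comprise 13 genes of the HSP70 system, 2 small heat shock proteins, 9 genes of HSP90 and its cochaperones, 8 TRiC subunits, 5 mitochondrial chaperones and 2 heat shock factors. Levels are RPKM, a read count divided by the length of the transcript and by the total of its library, as the authors computed them. A mean RPKM of at least 1 was required for testing and was reached by 38 of the 39 members and by 10153 genes in all. The exception was HSPB8.

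The cells are labelled wild type and were transfected with siRNA by a lipid reagent. The control siRNA gave 1 library (siNC), and siRNA against CDCA3 gave 2. CDCA3 is a cell division cycle associated gene, and the series was designed to find its downstream targets. The labels leave it unstated whether the siCDCA3 libraries used 2 siRNA sequences or repeat cultures of the same one, and how long after transfection RNA was taken. Both were taken as 1 group of 2 libraries. Any p-value rests on the spread between these libraries, which may be technical and is shared in part across genes. In the order siNC, siCDCA3-1, siCDCA3-2, which holds wherever 3 values follow each other, the checks were these. CDCA3 itself had 5.52 RPKM in siNC, 0.574 RPKM in siCDCA3-1 and 1.40 RPKM in siCDCA3-2. The libraries held 50912733 (siNC), 40420562 (siCDCA3-1) and 62389920 (siCDCA3-2) gene-level counts, so siCDCA3-2 was the deepest and siCDCA3-1 the shallowest. Epithelial and basal urothelial markers were present at 8 of 8, and their RPKM summed to 2280, 1842 and 1420 in the same order of libraries. Of 14 fibroblast, leukocyte and endothelial markers 1 reached a mean RPKM of 1, COL1A1. The fibroblast sum ran from 2.37 to 10.04, the leukocyte sum from 0.412 to 0.766 and the endothelial sum from 0.0312 to 0.0979. In bulk RNA, fewer cells with a transcript and less of it per cell cannot be told apart.

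HSP70 proteins hold exposed hydrophobic stretches of a client and release them in an ATP cycle that J-domain proteins start and exchange factors reset. HSP90 acts later, on clients such as kinases and steroid receptors, with cochaperones that deliver the client or adjust its ATP cycle. TRiC encloses actin, tubulin and other clients in a chamber built of stacked rings. In mitochondria HSPA9 (mortalin) draws in imported proteins and the HSPD1-HSPE1 chaperonin folds them. HSF1 switches on many of these genes when proteins misfold, by binding heat shock elements, which are inverted repeats of GAA.

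The members were on the whole higher in siCDCA3-2 than in the other libraries. They took 0.997% of all gene-level counts in siNC, 0.951% in siCDCA3-1 and 1.74% in siCDCA3-2. HSPA8, the constitutive HSP70, was the 1 member that stood at least 2-fold above siNC in both siCDCA3 libraries, beside 0.0985% of all genes. HSPB1, a small heat shock protein, was the 1 member of 38 (2.63%) at least 1.5-fold below siNC in both, near the 2% of all genes. No member was at least 2-fold below siNC in both. At 1.5-fold, counted on log2(RPKM + 1), DNAJA1 joined HSPA8 above siNC in both. Chaperonin and HSP90 genes had their highest level in siCDCA3-2, while most of them had their lowest in siCDCA3-1. The heat shock factors had their highest level in siNC.

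No member passed the test of siCDCA3 against siNC. In the edgeR quasi-likelihood test, adjusted by Benjamini-Hochberg over all genes, 0 of 38 members were called, beside 3 of 10153 genes (0.0295%), and 0 were called by DESeq2 or by limma. At an unadjusted edgeR p under 0.05 there was 1 member, HSPA8, beside 1.32% of all genes. In the edgeR test each gene's spread is drawn toward that of all genes, with a weight of 12 prior degrees of freedom. That test draws its 1 residual degree of freedom from the siCDCA3 pair and has to assume the same spread for siNC, which has no replicate. CDCA3, the silenced target, was not called by it either, at an edgeR log2 fold change of -2.5 (standard error 0.67). A missing call thus does not show that a member was unchanged. The values below are therefore given per library. Folds are ratios of RPKM with exact 95% binomial intervals that cover counting error only. Counts of members past a fold use log2(RPKM + 1), where the pseudocount of 1 understates the change of low genes.

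**Figure D1:**
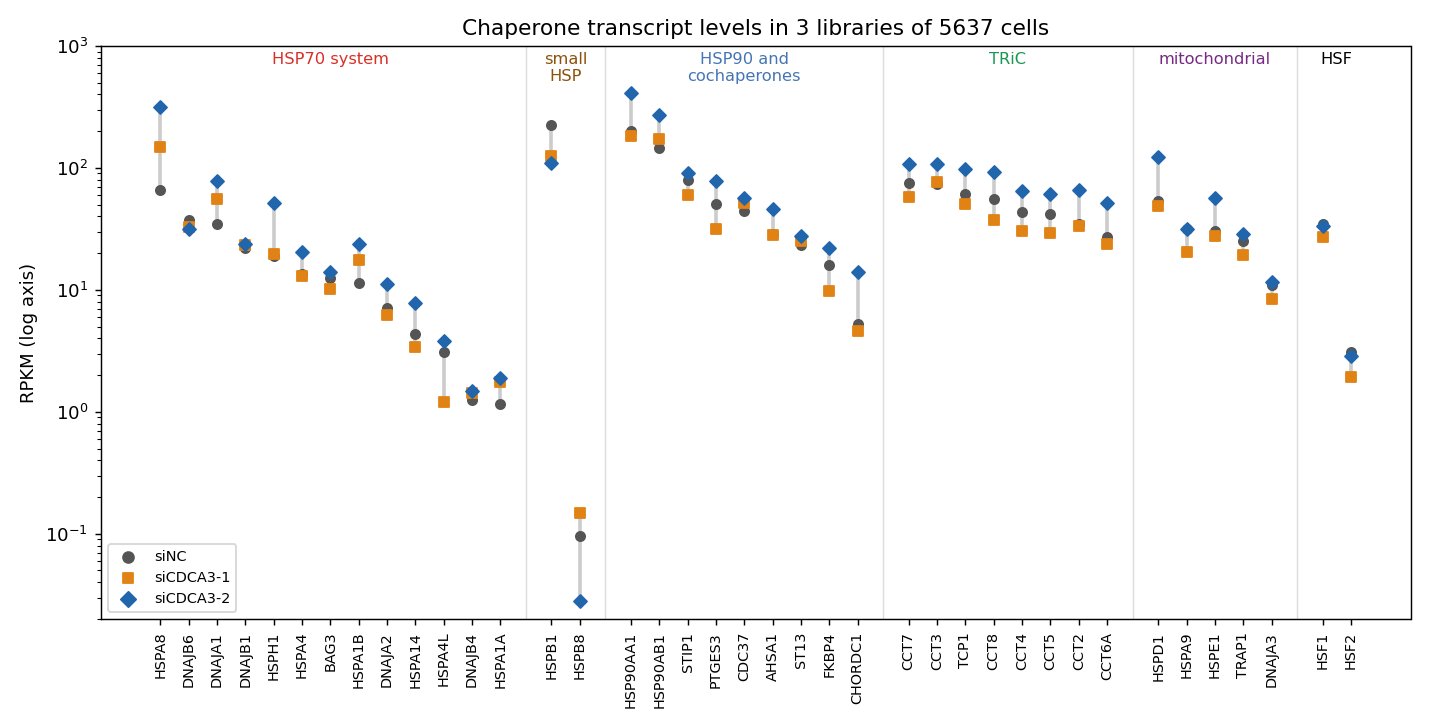
RPKM of the 39 members on a log axis, by role, in siNC (circles), siCDCA3-1 (squares) and siCDCA3-2 (diamonds), 1 library each; grey lines join the lowest and the highest library. The diamond is the top point for HSPA8 (316), HSP90AA1 (413) and all 8 TRiC subunits, whereas HSPB1 has its top point in siNC (226).

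Heat shock elements were looked for in the 250 bases before each start listed by RefSeq (GRCh38.p14), because HSF1 binds them. The motif, chosen with the results known, was GAANNTTCNNGAA on either strand, which read from the other strand is TTCNNGAANNTTC. Of the members 34 matched the table, with 48 starts. The motif was present before 6 of these starts (12.5%), beside 155 of all 35116 starts (0.441%). The 6 starts belong to HSPA8, HSP90AA1, HSP90AB1, HSPD1, CHORDC1 and DNAJB6. A match is a description of letters and was not tested as a binding site, and the list was assembled from genes known for the heat shock response. The 8 sites are shown because they are what these 6 members share in sequence. Each is 29 bases, 5′ to 3′ on the gene's strand, with the motif or its overlapping copies in capitals.
HSPA8 near: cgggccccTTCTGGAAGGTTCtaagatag
HSPA8 far: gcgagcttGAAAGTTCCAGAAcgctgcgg
HSP90AA1: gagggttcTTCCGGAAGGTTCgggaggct
HSP90AB1 near: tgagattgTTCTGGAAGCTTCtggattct
HSP90AB1 far: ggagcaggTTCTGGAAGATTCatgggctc
HSPD1: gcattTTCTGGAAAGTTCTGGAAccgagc
CHORDC1: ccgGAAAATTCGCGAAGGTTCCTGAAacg
DNAJB6: agagccgaGAACCTTCGCGAAggtggggc

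The HSPA8 motifs began 55 and 230 bases before a start on the minus strand of chromosome 11, in the windows chr11:123062171-123062199 and chr11:123062346-123062374. The CHORDC1 run, chr11:90223084-90223112 on the minus strand, spanned 23 bases with 3 overlapping copies of the motif and began 60 bases before the start. In HSP90AA1 (chr14:102087112-102087140, minus strand) the motif began 88 bases before a start, and in HSP90AB1 (chr6:44247770-44247798 and chr6:44247823-44247851, plus strand) 165 and 112 bases before one. The HSPD1 run (chr2:197500062-197500090, minus strand) began 245 bases before a start, and the start of HSPE1, which is transcribed the opposite way, lies 289 bases beyond the window's upstream end. In DNAJB6 (chr7:157336865-157336893, plus strand) the motif began 131 bases before the start. HSP90AA1, HSP90AB1 and HSPD1 have several listed starts, and the counts do not tell which was used. The sites of HSPA8, HSP90AA1, HSP90AB1 and HSPD1 lie inside the gene's RefSeq span, which begins farther upstream than the start used, while those of CHORDC1 and DNAJB6 lie outside it.

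The HSP70 system was the group with the widest range of differences. HSPA8 (NM_006597.5) had 65.9 RPKM in siNC, 148 RPKM in siCDCA3-1 and 316 RPKM in siCDCA3-2, from 21160, 38007 and 125037 counts. Each siCDCA3 library lay above siNC, and siCDCA3-2 lay above siCDCA3-1. The folds over siNC were 2.25 (2.21 to 2.29) and 4.80 (4.73 to 4.87). Among all genes tested, the HSPA8 difference in log2(RPKM + 1) was at percentile 99.5 in siCDCA3-1 and 99.9 in siCDCA3-2. In edgeR the log2 fold change was 1.80 (standard error 0.63, unadjusted p = 0.0131) and did not pass after adjustment, with an edgeR adjusted p of 0.9997 and a DESeq2 adjusted p of 0.4266. Among genes tested, HSPA8 ranked 379th in siNC by RPKM, 148th in siCDCA3-1 and 64th in siCDCA3-2. The other listed HSPA8 transcript, NM_153201.3, had RPKM of 54.55, 126 and 267, nearly the same folds, though both transcripts count most of the same reads.

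HSPA1A and HSPA1B, neighbouring genes for the stress-inducible HSP70, code for nearly identical proteins, so the split of reads between them is uncertain. HSPA1B had 11.3 RPKM in siNC, 17.4 RPKM in siCDCA3-1 and 23.7 RPKM in siCDCA3-2, and HSPA1A had 1.15, 1.77 and 1.91. Their sum was 12.45, 19.2 and 25.6, so it stood in the same order as HSPA8. HSPA8 had 5.29 times their summed RPKM in siNC, 7.735 times in siCDCA3-1 and 12.4 times in siCDCA3-2.

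HSPH1, HSPA4 and HSPA4L are HSP110-type proteins, which act as exchange factors for HSP70. HSPH1 had 18.8 RPKM in siNC, 19.65 RPKM in siCDCA3-1 and 51.5 RPKM in siCDCA3-2. The first pair differed little, while siCDCA3-2 stood 2.74-fold over siNC (2.69 to 2.80). HSPA4 had RPKM of 13.5, 13.1 and 20.5. HSPA4L had 3.10, 1.21 and 3.78, and was thus low in siCDCA3-1, at 0.390 of the siNC level (0.352 to 0.431). HSPA14, an HSP70 that works with nascent chains at the ribosome, had 4.32, 3.41 and 7.85, but its other listed transcript differed by a factor of 1.26 in fold. Summed over these 7 HSP70 and HSP110 genes, RPKM was 118 in siNC, 205 in siCDCA3-1 and 426 in siCDCA3-2. HSPA8 made up 55.8% of that sum in siNC, 72.4% in siCDCA3-1 and 74.35% in siCDCA3-2.

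**Figure D2:**
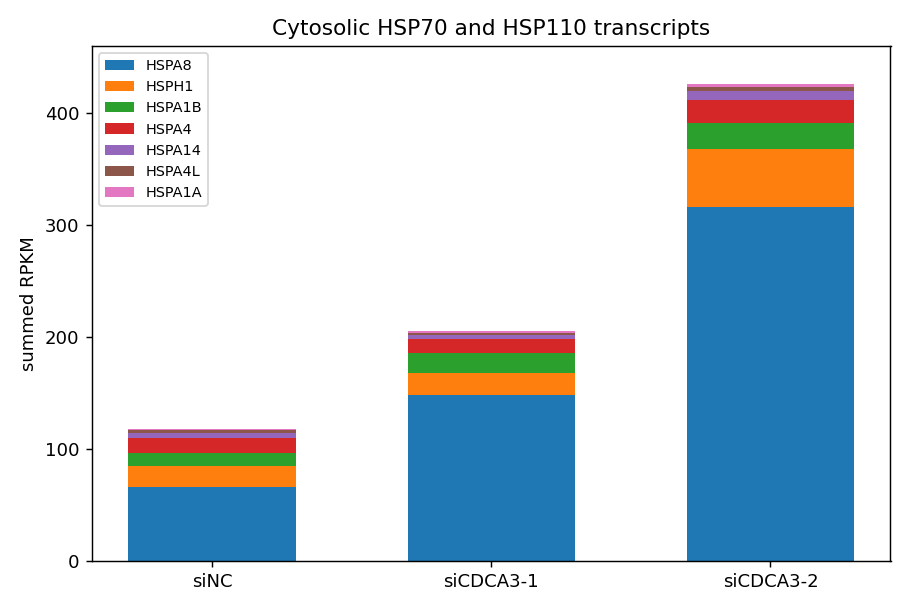
RPKM of the cytosolic HSP70 and HSP110 genes stacked for each library, on a linear axis from 0. The totals are 118, 205 and 426, and the HSPA8 segment is the tallest in each of the 3 libraries.

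The J-domain partners of HSP70 differed among themselves. DNAJA1, a farnesylated cytosolic J-domain protein, had 34.4 RPKM in siNC, 55.4 RPKM in siCDCA3-1 and 77.7 RPKM in siCDCA3-2. It was higher in both siCDCA3 libraries, by 1.61-fold (1.57 to 1.65) and 2.26-fold (2.21 to 2.31), with an edgeR log2 fold change of 0.95 (standard error 0.53, unadjusted p = 0.0959, edgeR adjusted p = 0.9997). On the log2(RPKM + 1) scale, DNAJA1 and HSPA8 were the 2 members at least 1.5-fold above siNC in both siCDCA3 libraries, beside 0.611% of all genes. As plain RPKM ratios HSPA1B (1.54 and 2.09) and HSPA1A (1.54 and 1.66) were as well, and the pseudocount takes them under that fold. DNAJA2, a close relative, had RPKM of 7.07, 6.19 and 11.2.

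DNAJB1, a partner of the stress-inducible HSP70, had 22.0 RPKM in siNC, 23.5 RPKM in siCDCA3-1 and 23.96 RPKM in siCDCA3-2. Its siCDCA3 libraries differed by 1.02-fold, with an interval (0.985 to 1.05) that includes 1. DNAJB4, at a low level, had 1.25, 1.43 and 1.47. DNAJB6, which suppresses aggregation, was 1 of the 5 members lower than siNC in both siCDCA3 libraries, with 37.3, 32.6 and 31.5, and its start has the motif shown above before it. BAG3, an exchange factor that links HSP70 to small heat shock proteins and autophagy, had 12.5, 10.2 and 14.0. HSPA8 thus stood at 2.997 times the RPKM of DNAJB1 in siNC, 6.30 times in siCDCA3-1 and 13.2 times in siCDCA3-2.

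Small heat shock proteins bind unfolding clients without ATP. HSPB1 (HSP27) had 226 RPKM in siNC, 126 RPKM in siCDCA3-1 and 109 RPKM in siCDCA3-2, from 26450, 11728 and 15771 counts. It was the most abundant member in siNC, and the siCDCA3 libraries lay below it at 0.555 (0.543 to 0.568) and 0.484 (0.475 to 0.494) of its level. In edgeR the log2 fold change was -0.93 (standard error 0.49, unadjusted p = 0.0838, edgeR adjusted p = 0.9997). HSPB1 was the 1 member at least 1.5-fold lower in both siCDCA3 libraries, where 2% of all genes were, and the 1 member at least 2-fold lower in siCDCA3-2, where 3.27% were. No member was at least 2-fold lower in both (0.719% of all genes). HSPB8, the partner of BAG3, was barely detected, with 25, 31 and 9 counts.

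Both cytosolic HSP90 genes were highest in siCDCA3-2. The inducible HSP90AA1 had 199.7 RPKM in siNC, 183 RPKM in siCDCA3-1 and 413 RPKM in siCDCA3-2. Its fold over siNC was 0.916 (0.907 to 0.925) in siCDCA3-1 and 2.07 (2.05 to 2.08) in siCDCA3-2. HSP90AB1, the constitutive form, had RPKM of 147, 172 and 274, and lay above siNC in both. The HSP90AA1 to HSP90AB1 ratio of RPKM was 1.36 in siNC, 1.06 in siCDCA3-1 and 1.51 in siCDCA3-2. Their edgeR log2 fold changes were 0.56 for HSP90AA1 and 0.60 for HSP90AB1, with standard errors of 0.61 and 0.56.

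The 7 cochaperones did not follow 1 pattern. CHORDC1, which binds HSP90 through a CHORD domain, had 5.21 RPKM in siNC, 4.57 RPKM in siCDCA3-1 and 13.97 RPKM in siCDCA3-2, the largest fold of the group in siCDCA3-2 at 2.68 (2.56 to 2.81). PTGES3, the p23 protein that stabilises client-bound HSP90, had 51.0, 31.25 and 78.25. FKBP4, an immunophilin of steroid receptor complexes, had 16.1, 9.75 and 22.2. These last were low in siCDCA3-1, at 0.613 (0.595 to 0.631) and 0.605 (0.582 to 0.629) of siNC, and high in siCDCA3-2.

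AHSA1, which speeds the HSP90 ATPase, had 28.9 RPKM in siNC, 28.1 RPKM in siCDCA3-1 and 45.8 RPKM in siCDCA3-2. STIP1 (HOP), which bridges HSP70 and HSP90, had 79.6, 59.9 and 90.05. CDC37, which delivers kinases, had 44.0, 51.1 and 56.4, and ST13, an HSP70-interacting protein, had 23.15, 25.2 and 27.5. CDC37 and ST13 were thus slightly above siNC in both libraries and were 1.10-fold and 1.09-fold higher in siCDCA3-2 than in siCDCA3-1.

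The TRiC subunits stood close together. All 8 subunits were higher in siCDCA3-2 than in siNC, by 1.43-fold (CCT7) to 1.92-fold (CCT2), beside 54.4% of all genes. In siCDCA3-1, 7 of the 8 were lower than in siNC and 1 was higher, where 41.4% of all genes were higher. TCP1 had 61.1 RPKM in siNC, 50.3 RPKM in siCDCA3-1 and 98.6 RPKM in siCDCA3-2. CCT2 had 34.4, 33.5 and 66.1, and CCT3 had 74.1, 76.0 and 108. CCT3 was the 1 subunit not lower in siCDCA3-1, at 1.03-fold (1.01 to 1.05). CCT2 was close to siNC there, at 0.972 (0.942 to 1.004), an interval that includes 1. With the TMM scaling given below, CCT2 turned to slightly above siNC.

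CCT4 had 43.2 RPKM in siNC, 30.3 RPKM in siCDCA3-1 and 65.15 RPKM in siCDCA3-2, and CCT5 had 41.99, 29.4 and 61.3. CCT6A had 27.2, 23.6 and 51.8, the lowest of the subunits in each library. CCT7 had 74.8, 58.2 and 107. CCT8 had 55.9, 37.7 and 91.9, and was both the lowest in siCDCA3-1 relative to siNC, at 0.674 (0.657 to 0.691), and the farthest apart between siCDCA3-2 and siCDCA3-1, at 2.44-fold (2.39 to 2.50). The median subunit had 49.5 RPKM in siNC, 35.6 RPKM in siCDCA3-1 and 79.0 RPKM in siCDCA3-2. Since the protein complex holds its subunits in equal numbers, the spread of the transcripts is also given: the most abundant had 2.75, 3.22 and 2.08 times the RPKM of the least abundant. The edgeR log2 fold changes of the 8 subunits ran from 0.10 for CCT5 to 0.52 for CCT2, with standard errors of 0.52 to 0.58, so none was larger than its error.

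**Figure D3:**
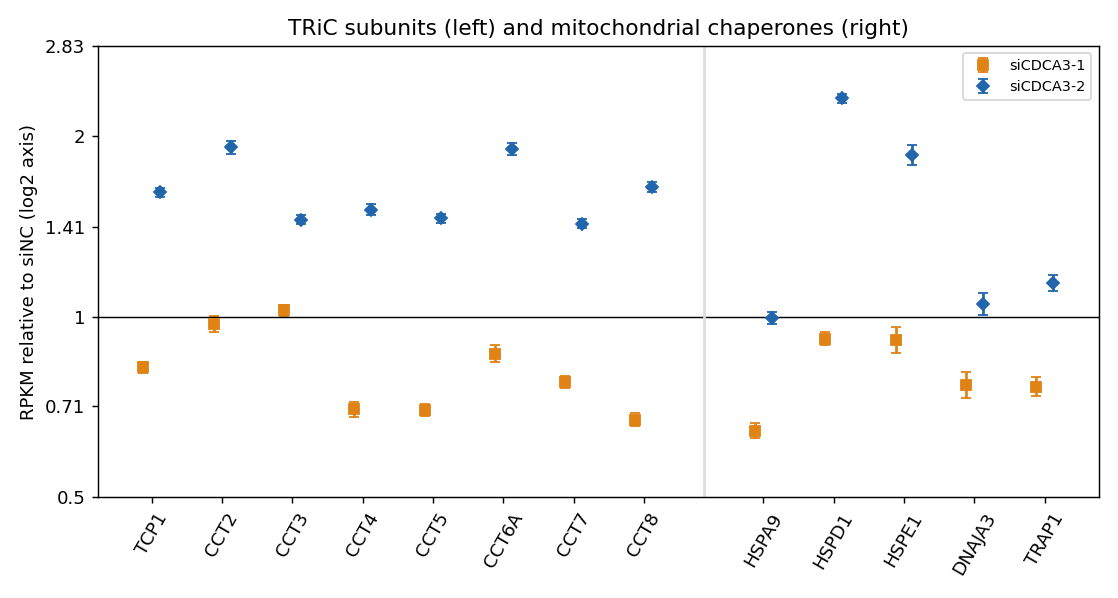
RPKM of TRiC subunits and mitochondrial chaperones relative to siNC, on a log2 axis, in siCDCA3-1 (squares) and siCDCA3-2 (diamonds), 1 library each; bars are exact 95% binomial intervals for counting error. All 8 TRiC diamonds lie above 1, between 1.43 and 1.92, while 7 of the 8 squares lie below 1. The siCDCA3-1 interval of CCT2 includes 1.

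The mitochondrial members split. HSPD1 (HSP60) had 53.3 RPKM in siNC, 49.1 RPKM in siCDCA3-1 and 123 RPKM in siCDCA3-2, and its lid HSPE1 (HSP10) had 30.4, 27.9 and 56.6. Both were highest in siCDCA3-2, at 2.31-fold (2.27 to 2.36) and 1.86-fold (1.79 to 1.93) over siNC, and both were near 0.92 of siNC in siCDCA3-1. The HSPD1 to HSPE1 ratio was 1.75 in siNC, 1.76 in siCDCA3-1 and 2.18 in siCDCA3-2. HSPA9 had 31.45, 20.3 and 31.3, so siCDCA3-1 was low at 0.646 (0.628 to 0.664) and siCDCA3-2 differed from siNC by less than counting error (0.974 to 1.02). DNAJA3, the J-domain partner of HSPA9, had 10.98, 8.46 and 11.5, and TRAP1, the mitochondrial HSP90, had 25.1, 19.2 and 28.6.

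Neither heat shock factor had its highest level in siCDCA3-2. HSF1 had 34.8 RPKM in siNC, 26.9 RPKM in siCDCA3-1 and 33.5 RPKM in siCDCA3-2, and HSF2 had 3.07, 1.91 and 2.85. For HSF1 the siCDCA3-2 ratio to siNC was 0.965 (0.939 to 0.991) and for HSF2 it was 0.927 (0.854 to 1.01). These are transcript levels; HSF1 activity is largely set after translation and was not measured.

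Counted over the 38 tested members, 7 were at least 2-fold higher in siCDCA3-2 than in siNC, beside 1.42% of all genes. They were HSPA8, HSPH1, HSPA1B, DNAJA1, HSP90AA1, CHORDC1 and HSPD1, and TMM scaling, under which no member's direction in siCDCA3-2 turned, left 5, without HSPA1B and HSP90AA1, beside 1.14% of all genes. At 1.5-fold there were 17, beside 9.6% of all genes, and these included 4 TRiC subunits. In siCDCA3-1, 1 member (HSPA8) was at least 2-fold higher than siNC, beside 0.847% of all genes, 2 were at least 1.5-fold higher, beside 3.92%, and 5 were at least 1.5-fold lower, beside 7.22%. Those 5 were HSPB1, HSPA4L, HSPA9, FKBP4 and PTGES3. The median log2 difference of the members from siNC was -0.179 in siCDCA3-1 and 0.551 in siCDCA3-2, beside -0.067 and 0.046 over all genes. By group, the siCDCA3-1 and siCDCA3-2 medians were 0.063 and 0.568 for the HSP70 system, -0.126 and 0.608 for HSP90 and cochaperones, -0.316 and 0.632 for TRiC, and -0.342 and 0.181 for the mitochondrial members.

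Members are mostly abundant transcripts, so the same counts were taken among genes averaging 20 RPKM or more, a level chosen after the data were seen. Of 26 such members 5 were at least 2-fold and 13 at least 1.5-fold higher in siCDCA3-2 than in siNC, beside 1.92% and 9.42% of the 1507 genes at that level. The member transcripts were also shorter than most, with a median of 2456 bases against 3090. Across the 10153 genes, which share libraries and are no replicates, length had a Spearman correlation of 0.101 with the siCDCA3-2 difference and 0.209 with that of siCDCA3-1.

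By direction alone, 11 of 38 members were above siNC in siCDCA3-1 (41.4% of all genes) and 33 in siCDCA3-2 (54.4%). In all, 22 members were below siNC in siCDCA3-1 and above it in siCDCA3-2, beside 30.8% of all genes. Another 11 were above siNC in both libraries (23.6% of all genes) and 5 below it in both (27.8%), namely HSPB1, HSPA9, DNAJB6, HSF1 and HSF2. None was above in siCDCA3-1 and below in siCDCA3-2, where 17.8% of all genes were. Both differences use the same siNC library and are not independent of each other. With TMM scaling HSPA4, AHSA1 and CCT2 turn from slightly below to slightly above siNC in siCDCA3-1. This gives 14 members above in both and 19 in opposite directions. The shares of all genes given above are for the deposited scaling, and those under TMM are not given. With TMM the all-gene medians were -0.001 in siCDCA3-1 and -0.002 in siCDCA3-2, against -0.067 and 0.046 as deposited.

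**Figure D4:**
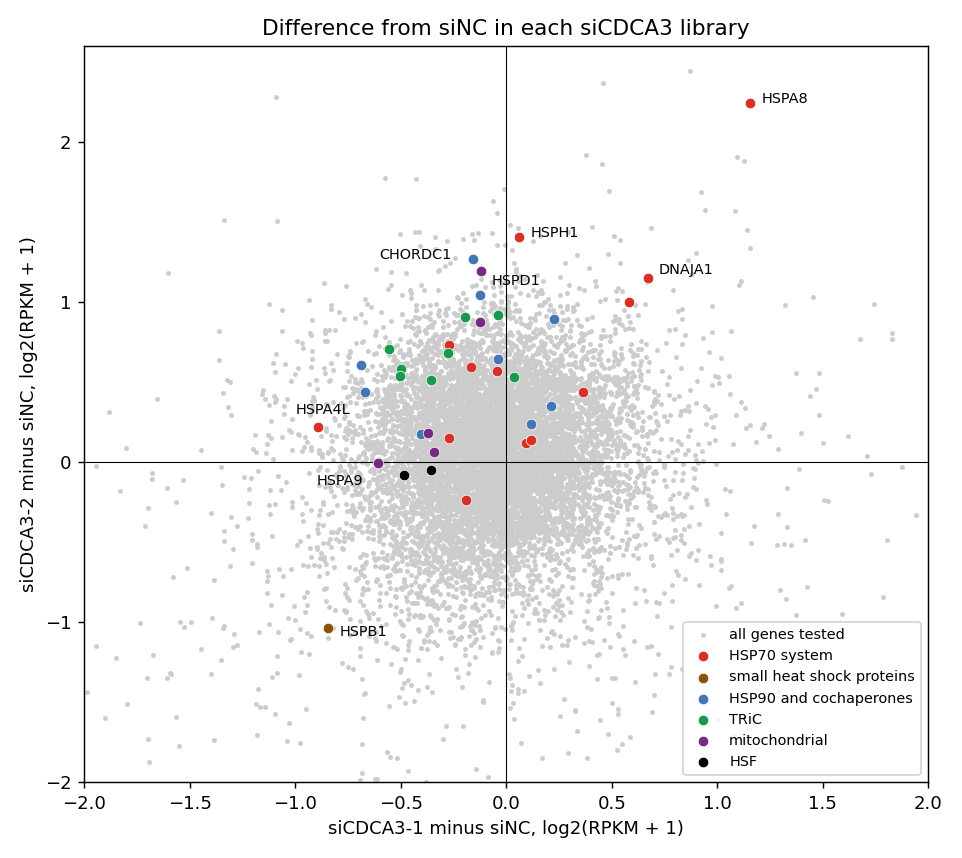
Difference from siNC in log2(RPKM + 1) for siCDCA3-1 (horizontal) and siCDCA3-2 (vertical), for all genes tested (grey) and the members by role (colours); 64 genes lie outside the axes. Most members sit above the horizontal line at 0, HSPA8 lies at the upper right (1.16 and 2.25) and HSPB1 at the lower left (-0.84 and -1.04).

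Set against each other, the siCDCA3 libraries differed at many members. At 36 of 38 members the RPKM was higher in siCDCA3-2, beside 57.8% of all genes, the exceptions being HSPB1 and DNAJB6. At least 2-fold higher were 13 members, beside 4.9% of all genes, and 0 were at least 2-fold lower, beside 3.72%. At 1.5-fold 22 members were higher, beside 17.6%. The 13 were HSPA8, HSPH1, HSPA4L, HSPA14, HSP90AA1, CHORDC1, FKBP4, PTGES3, CCT4, CCT5, CCT6A, CCT8 and HSPD1. This comparison moves with the scaling: TMM shifted the all-gene median of it by -0.116, left 7 of the 13, and turned the split over all genes from 498 higher and 378 lower to 330 higher and 485 lower. The 7 were HSPH1, HSPA4L, HSP90AA1, CHORDC1, PTGES3, CCT8 and HSPD1, beside 3.25% of all genes. With TMM the members higher in siCDCA3-2 numbered 32, since HSPA1A, DNAJB1, DNAJB4 and ST13 turned. The matching share of all genes under TMM is not given, and the all-gene median was -0.018 there, against 0.098 as deposited. The deepest library was also the one with the higher member levels, and the part of depth in this difference was not tested.

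A wider list of 71 chaperone and cochaperone genes outside the members had 60 tested genes (10 were under the minimum level and TOMM70A was not matched by symbol), none called by edgeR, at an adjusted or an unadjusted p under 0.05. Their medians were -0.223 in siCDCA3-1 and 0.201 in siCDCA3-2. The members' medians had the same signs, and so did those of all genes, at -0.067 and 0.046. None of the 60 tested genes was at least 2-fold higher in siCDCA3-2 than siNC on log2(RPKM + 1), beside 1.42% of all genes. Among genes under the minimum level, HSPA6 and HSPA2 had plain RPKM ratios of 3.705 and 2.557, from 219 and 85 counts in siCDCA3-2. Of the tested genes 7 (11.7%) were at least 1.5-fold higher, near the 9.6% of all genes. Another count was of genes below siNC in siCDCA3-1 and above it in siCDCA3-2, which were 32 (53.3%), beside 30.8%. The next 4 genes are the extremes among the 41 of the list with a mean RPKM of at least 5. PDCL3, a phosducin-like cofactor of TRiC, had the highest difference in siCDCA3-2, with RPKM of 6.82, 6.35 and 12.55. BAG1, an HSP70 exchange factor, had the highest in siCDCA3-1, with 6.31, 7.58 and 9.996. DNAJB2 had the lowest in siCDCA3-2, with 9.22, 7.45 and 4.76, and HSPB11 the lowest in siCDCA3-1, with 10.2, 5.16 and 15.4. GRPEL2, an exchange factor for HSPA9 chosen after its values were seen, has a mean below that level, with 3.81, 0.9496 and 2.80. On log2(RPKM + 1) it was the 1 tested gene of the list at least 2-fold lower in siCDCA3-1, beside 1.74% of all genes. As a plain RPKM ratio the tested gene BAG4 was as well, at 0.385 of siNC, and the pseudocount takes it under that fold.

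The choice of transcript mattered little for most members. With the longest transcript the HSP70 system median in siCDCA3-2 was 0.436 against 0.568, and the medians of the other groups stayed the same. The edgeR log2 fold change became 0.03 against 0.37 for HSPA14 and 0.43 against 0.23 for DNAJB4. The members had 92 transcripts in the table, and 27 members had at least 2 with a mean of 100 counts or more. The folds of a gene's transcripts differed by a median factor of 1.01 in siCDCA3-1 and 1.02 in siCDCA3-2, and by more than 1.2 only for DNAJB4 and HSPA14. Reads shared between transcripts were counted for each, so these rows are not separate measurements. HSPA8, HSP90AA1, HSP90AB1, HSPD1, HSPE1 and several TRiC genes also have processed pseudogenes, and how reads matching both were handled was not given in the sources used here.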

How the data were processed

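Per the submitters' processing notes, Trimmomatic 0.36, FastQC, HISAT2 and HTSeq were used; hg38 and mm10 are both listed without a role. The deposited table holds, per the file headers, a raw count per RefSeq transcript and library, and the authors' RPKM. The counts, lengths and RPKM together imply 1 total per library. Worked back from them, these totals were 130459616, 104153360 and 160640877. The strand setting was not given in the sources used here. Of the accessions 98.6% matched RefSeq GRCh38.p14, and 102 of 103 symbols turned into dates were restored.

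The main test was edgeR 4.0.16 (R 4.3.3) with TMM scaling, a two-sided quasi-likelihood test of siCDCA3 (n = 2) against siNC (n = 1) and Benjamini-Hochberg adjustment over 10153 genes, threshold 0.05. Standard errors were derived as |log2 fold change|/√F. The script was tested on simulated data set with less spread between libraries than these data have. That run checked the direction of changes and does not show what the test can call here. DESeq2 1.42.0, limma 3.58.1, median-of-ratios scaling, other filters, pseudocounts and the longest transcript were alternatives. Every member is named, and from the wider list the genes 2-fold from siNC in both libraries and the extremes at a mean RPKM of at least 5. Members, groups and lists were chosen with earlier results of these data known.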

Additional observations from a re-analysis of the deposited data

How the results depend on the processing

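No paired analysis was possible because siNC has a single library. The 3 genes called by edgeR became 22 without a filter on low values, 10 with DESeq2, 0 at a mean RPKM of at least 5 and 0 with limma; the cause was not tested. No member was called under these or under median-of-ratios scaling or the longest transcript. With a pseudocount of 0.5 or 0.1, 1 member (HSPA4L) was 2-fold lower in siCDCA3-1, against 0. TMM scaling left 7 members 2-fold higher in siCDCA3-2 than in siCDCA3-1, beside 3.25% of all genes. At 1.5-fold in place of 2-fold, 2 members were higher in siCDCA3-1, beside 3.92% of all genes, and 5 were lower, beside 7.22%. In siCDCA3-2 at that fold, 17 were higher than in siNC, beside 9.6%, and 22 were higher than in siCDCA3-1, beside 17.6%. Without a filter HSPB8 enters the small heat shock proteins, whose medians become -0.388 and -0.566. With only one siCDCA3 library kept, the log2 fold change of HSPA8 was 1.25 or 2.20 and that of HSPB1 -0.77 or -1.11, while HSP90AA1 had -0.05 or 0.99 and HSPD1 -0.04 or 1.15. The spread among siNC cultures is unknown, and depth limits HSPB8 and HSPA1A most, the members with the fewest counts.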

Other observations

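The genes with the heat shock motif GAANNTTCNNGAA before a listed start were described beyond the members. Of the 6 members with it, 5 were at least 1.5-fold higher in siCDCA3-2 than in siNC, the exception being DNAJB6, and their median log2 difference was 1.12. Of 27 tested members that matched the table and lacked it, 10 were, with a median of 0.531. Among tested genes other than the members, 4 of 31 with the motif (12.9%) and 749 of 8002 without it (9.36%) passed that fold, with medians of 0.229 and 0.047. With the members included the share with the motif was 9 of 37 (24.3%), and 5 of those 9 genes are members. In siCDCA3-1 the medians were -0.122 for members with the motif and -0.269 for members without. The motif and the member list were chosen with the results known, and genes are no replicates. These shares and medians are a description, and a role of HSF1 was not tested. The shorter pair, GAANNTTC or TTCNNGAA, occurred before 11.6% of all starts and 33.3% of member starts. It was also present in members counted above as lacking the motif, HSPA1A, HSPA1B and DNAJB1 among them. Among tested genes other than the members, 9.72% with the pair and 9.33% without it were at least 1.5-fold higher in siCDCA3-2 than in siNC. HSPA6, an HSP70 gene that is silent in most unstressed cells, had 0.156 RPKM in siNC, 0.163 RPKM in siCDCA3-1 and 0.578 RPKM in siCDCA3-2, from 48, 40 and 219 counts. It lay under the minimum level for testing and was picked with its values known.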
